A study of Rattus norvegicus with 12 samples.

Results

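The response of cultured rat hepatocytes to 1-chloro-3-(4-chlorophenoxy) benzene (CCPB), a diphenyl ether with chlorine atoms and no hydroxyl group, was compared with that to the vehicle dimethyl sulfoxide (DMSO). The comparison used 6 of the 12 one-colour arrays of the study, 3 titled for CCPB and 3 for DMSO, and the arrays were chosen by those titles alone. The cells were primary hepatocytes, frozen after isolation from male rats of the Sprague Dawley strain. They were kept 24 h in culture and then given DMSO alone, or CCPB at 30 µM, for another 24 h. The other 6 arrays, 3 of triclosan and 3 of diclosan at the same dose and time, entered the fit and a closing comparison of structures. The series describes 3 independent experiments per condition. The labels do not say whether these used different rats or lots of cells, so the p-values measure the spread between these samples only.

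Hepatocytes sense foreign compounds through receptors that act as transcription factors. CAR and PXR induce cytochrome P450 enzymes of the Cyp2b, Cyp2c and Cyp3a families together with the enzymes that conjugate their products, the aryl hydrocarbon receptor (AhR) induces Cyp1a enzymes, and PPARalpha, a sensor of fatty acids, induces their oxidation. P450 enzymes need heme and electrons from the reductase Por. Adult hepatocytes rarely divide in the liver and can re-enter the cell cycle after injury or isolation.

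All values below are log2 signals relative to the 75th percentile of their own array, and a difference is the CCPB mean minus the DMSO mean on that scale. A transcript was called when its limma p-value, adjusted by Benjamini-Hochberg over 20359 transcripts, was under 0.05. The arrays lay on 2 slides, with DMSO on slide 1 and CCPB on slide 2, so no value within a slide exists and slide and compound cannot be told apart from these 6 arrays. Only diclosan ties the slides, with replicates 1 and 2 on slide 1 and replicate 3 on slide 2. The fit with the slide as a fixed term therefore adds the difference of CCPB from diclosan replicate 3 to that of diclosan replicates 1 and 2 from DMSO. Transcripts called with the same sign in both fits are described first. Hepatocyte markers were bright on all 6 arrays, apart from Cps1, which lay below the 75th percentile. The summed linear level of 10 hepatocyte markers, in units of the array's 75th percentile, was 2325 to 2428 on the DMSO arrays and 2402 to 2459 on the CCPB arrays, and that of 12 Kupffer cell markers was 0.808 to 1.14 on the DMSO arrays and 1.05 to 1.18 on the CCPB arrays.

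Without the slide term 5760 transcripts were called (28.3%), 2869 higher with CCPB (14.1%) and 2891 lower (14.2%). With it 697 were called (3.42%), 332 higher (1.63%) and 365 lower (1.79%), and 605 passed in both fits with the same sign (2.97%), 297 higher (1.46%) and 308 lower (1.51%). Of these 605, 384 had a gene symbol, 197 of them higher and 187 lower. A 2-fold difference was reached by 56 of them (0.275%), 16 higher and 40 lower. All 605 had the same sign against diclosan replicate 3, the neighbour on their own slide, and 514 were called there. The difference with the slide term contains that difference, so this agreement is no separate check. The 3 CCPB arrays lay wholly beyond the 3 DMSO arrays for 10193 transcripts (50.1%). The counts fell whichever CCPB or DMSO array was dropped. In the fit with no slide term, dropping DMSO replicate 1, 2 or 3 left 3724, 3731 or 3876 calls. Dropping CCPB replicate 1, 2 or 3 left 3998, 3802 or 3663 calls. For calls in both fits, dropping DMSO replicate 1, 2 or 3 left 337, 466 or 396. Dropping CCPB replicate 1, 2 or 3 left 461, 342 or 400. With the array column as a second fixed term beside the slide limma called 0 transcripts, while 2272 had an unadjusted p under 0.05.

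**Figure D1:**
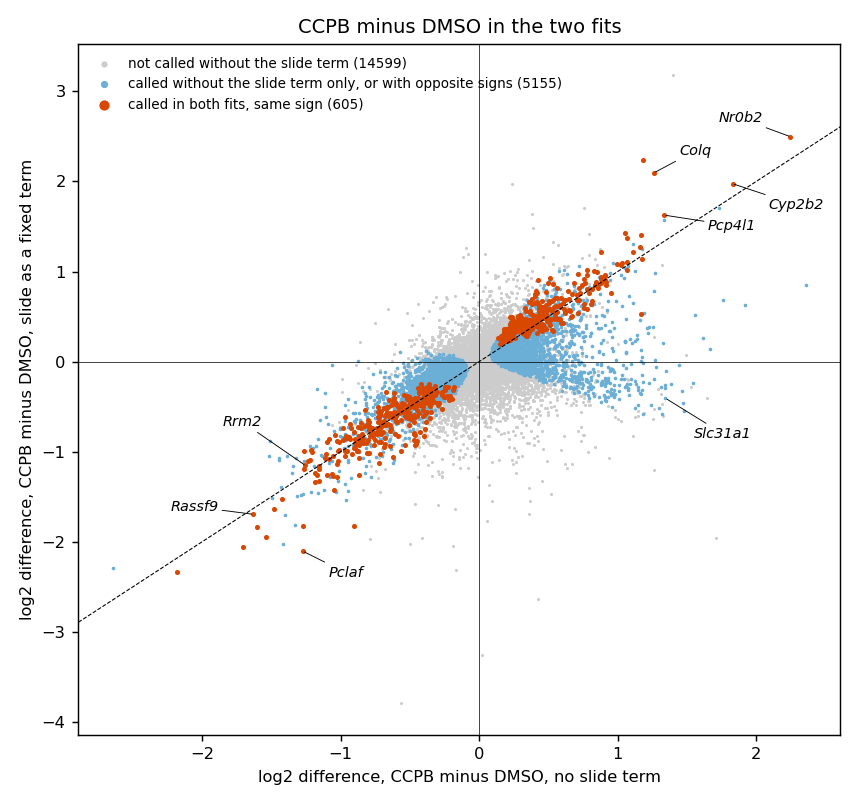
Log2 difference of CCPB minus DMSO for each of 20359 transcripts, without the slide term (x axis) and with the slide as a fixed term (y axis); the dashed line marks equal values. The 605 transcripts called in both fits with the same sign lie away from 0 on both axes, whereas Slc31a1, called only without the slide term, lies at 1.34 on the x axis and -0.41 on the y axis.

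The 14 largest rises and falls called in both fits were picked among genes whose groups did not overlap. Their separation therefore follows from the choice. The rises were led by Nr0b2, a corepressor of nuclear receptors that restrains bile acid synthesis. Its level was -2.21, -1.76 and -2.01 on the DMSO arrays and 0.35, 0.31 and 0.10 on the CCPB arrays, a difference of 2.25 with a 95% confidence interval of 1.97 to 2.53 and an adjusted p of 1.26e-05 by limma. Every CCPB array lay far above every DMSO array, and diclosan replicate 3, on the CCPB slide, also stood above DMSO at -0.36. Cyp2b2, a P450 induced through CAR, had -0.97, -1.04 and -1.28 with DMSO and 0.79, 0.78 and 0.64 with CCPB. Its probe can share signal with the near-identical Cyp2b1, for which no probe was named. Pcp4l1 rose from 0.77, 0.75 and 0.63 to 2.26, 1.96 and 1.95, and diclosan replicate 3 stood at 0.55, below all 3 DMSO arrays. Colq, the collagen tail of acetylcholinesterase, had -5.14, -5.09 and -5.16 with DMSO, where 1 of 3 arrays was above background, and -3.96, -3.73 and -3.92 with CCPB.

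Of the other large rises, 2 belong to fuel choice. Acot5, an acyl-CoA thioesterase, rose 2.25-fold, from -2.10, -1.77 and -2.22 to -0.77, -0.86 and -0.96 (difference 1.17, interval 0.91 to 1.43, adjusted p = 0.000148 by limma). Pdk4, which switches off pyruvate dehydrogenase and so spares glucose, rose 2.16-fold, from -2.42, -2.71 and -2.72 to -1.62, -1.35 and -1.55 (difference 1.11, interval 0.90 to 1.32, adjusted p = 7.01e-05 by limma). In both genes the groups did not overlap, and diclosan replicate 3 stood within or below the DMSO range (-2.06 and -2.78). Egr1, an immediate early transcription factor, had -2.02, -1.59 and -1.61 with DMSO and -0.62, -0.73 and -0.71 with CCPB, 2.07-fold higher. Zap70, a kinase best known from T cell receptor signalling, rose by 1.03, and the beta-defensin Defb1 by 1.02. Depp1, a gene induced by FOXO factors, and Gdf15, a secreted stress-responsive cytokine, rose by 0.95 and 0.92. C1h11orf86 (1.17), Sfnl1 (1.07) and LOC108352174 (1.17) completed the 14 named rises, the last with a smaller difference of 0.52 once the slide was a term.

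Among the falls, Rassf9, a Ras association domain protein, had -1.94, -2.03 and -2.02 with DMSO and -3.54, -3.56 and -3.78 with CCPB. The phospholipid scramblase Plscr2 had -2.17, -2.37 and -2.27 and -3.50, -3.92 and -3.65, and Atp2a1, a calcium pump of the sarcoplasmic reticulum, -3.16, -2.90 and -3.12 and -4.38, -4.41 and -4.19. Atp2a1 was thus 2.41-fold lower (difference -1.27, interval -1.46 to -1.07, limma adjusted p = 2.31e-05). For all 3 genes the CCPB arrays lay below the DMSO arrays and below diclosan replicate 3, with no overlap. Of the remaining named falls, 4 belong to DNA replication, repair or chromosome segregation. Rrm2, a subunit of ribonucleotide reductase, fell from 2.15, 2.12 and 2.16 to 0.99, 0.71 and 0.97, 2.39-fold lower (interval of the log2 difference -1.44 to -1.07). Cenpt, a kinetochore protein, fell from -1.95, -1.90 and -1.86 to -3.12, -2.97 and -3.09, 2.23-fold lower (interval -1.30 to -1.02). Pclaf, which binds the replication clamp, had a difference of -1.27. Exo1, an exonuclease of DNA repair, had -1.09 on its brightest probe and 0.91 on its other probe, so its direction is not settled. Iqgap3, a scaffold protein of the cytoskeleton, had -1.06.

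The rest of the named falls came from genes of signalling and cell structure. Epha4, an ephrin receptor, went from -2.27, -2.31 and -2.16 to -3.38, -3.50 and -3.42, 2.28-fold lower. Nes, the intermediate filament protein nestin, had a difference of -1.21, but diclosan replicate 3 (-2.78) stood between the DMSO arrays (-2.13, -2.08 and -2.22) and the CCPB arrays (-3.31, -3.29 and -3.47), and the difference from it did not pass (-0.58, limma adjusted p = 0.0544). Smarcd3, a subunit of SWI/SNF chromatin remodelling complexes, fell by 1.17 on the log2 scale, and Penk, which encodes the enkephalin precursor, fell by 1.08. Calhm5 (-1.10) and the RNA-binding protein Dnd1 (-1.16) completed the 14, and Dnd1 too did not pass against diclosan replicate 3 (-0.79, adjusted p = 0.0998).

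**Figure D2:**
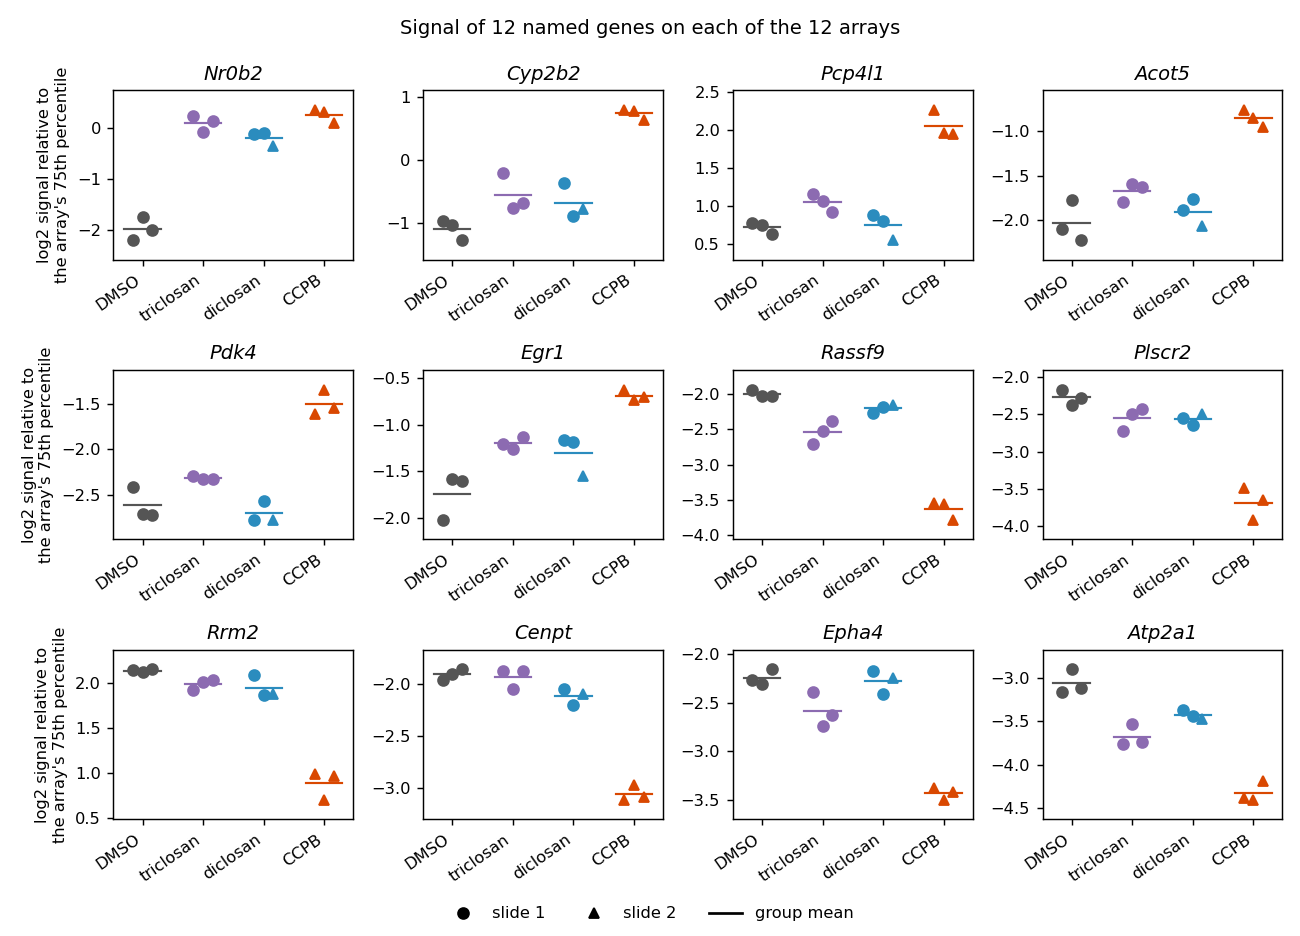
Log2 signal relative to the array's 75th percentile (y axis) of 12 genes on each of the 12 arrays, grouped by treatment, with circles for slide 1, triangles for slide 2 and bars for group means. In all 12 genes the 3 CCPB arrays lie beyond the 3 DMSO arrays, and beyond diclosan replicate 3 in the same direction. The genes were picked among calls in both fits whose groups did not overlap, so this separation is no separate check. For Nr0b2 diclosan replicate 3 (-0.36) lies near CCPB.

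CAR and PXR target genes rose, 17 of 30 tested members without the slide term and 8 in both fits, while 2 and 1 fell. Their median difference was 0.28 (0.21 with the slide term), beside a median of 0.0039 over all transcripts. The shares over all transcripts were 14.1% higher and 14.2% lower without the slide term, and 2.97% in both fits. After Cyp2b2 came Cyp2c6v1, a Cyp2c enzyme of rat liver, with 2.22, 2.29 and 2.20 on the DMSO arrays and 3.24, 3.15 and 3.06 on the CCPB arrays, 1.88-fold higher (limma adjusted p = 1.95e-05). The groups were well separated, and CCPB stood 0.65 above diclosan replicate 3. Of the Cyp3a enzymes, which oxidise many drugs and steroids, Cyp3a62 (0.58), Cyp3a18 (0.55) and Cyp3a23-3a1 (0.48) rose in both fits. Cyp3a2 (0.0054, interval -0.14 to 0.15) and Cyp3a9 (-0.13, interval -0.31 to 0.052) did not pass. Cyp2c7 rose (0.50), whereas Cyp2c11, the male-specific Cyp2c enzyme, was lower without the slide term only (-0.23, and -0.13 with adjusted p = 0.567 with it), and lost its call when DMSO replicate 1, DMSO replicate 2 or CCPB replicate 2 was dropped. The epoxide hydrolase Ephx1 passed without the slide term (0.31) and missed the threshold with it (0.47, adjusted p = 0.0622). Aldh1a1, which makes retinoic acid, was the member lower in both fits (-0.37). These gene families hold near-identical copies whose probes can share signal.

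Genes of heme synthesis and electron supply were called in both directions, with a median difference of -0.017 (0.025 with the slide term). Por, the electron donor of P450 enzymes, rose by 0.40 (interval 0.25 to 0.56), and by 0.65 with the slide term. Alas1, the rate-limiting enzyme of heme synthesis, rose by 0.35 (0.45), and Hmox1, which degrades heme, by 0.41 (0.43). Lower without the slide term only were Alad (-0.26), the next step of heme synthesis, Fdx1 (-0.25) and Fdxr (-0.13), which carry electrons to mitochondrial P450 enzymes, and Cyb5b (-0.17), a cytochrome b5. Of the 19 tested genes of heme synthesis and electron supply, 5 were called higher (26.3%) and 4 lower (21.1%) without the slide term. The shares over all transcripts were 14.1% and 14.2%. The 3 that passed in both fits (15.8%, beside 2.97% over all transcripts) were Por, Alas1 and Hmox1. The receptors themselves were also higher: Nr1i3, which encodes CAR, by 0.81 and Nr1i2, which encodes PXR, by 0.27, both called in both fits.

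Conjugating enzymes, which attach polar groups for excretion, rose. Over all transcripts 14.1% were higher and 14.2% lower without the slide term, and 2.97% passed in both fits. Of the glutathione transferases, 14 of 21 were higher and 0 lower, and Gstm3 (0.68), Gsta3 (0.54), Gsta1 (0.54) and Gstm2 (0.18) passed in both fits. Of the UDP-glucuronosyltransferases and the enzymes of their cofactor, 10 of 13 were higher and 0 lower, with a median of 0.30, but Ugt2b15 (0.26) was the sole member to pass in both fits. Of the sulfotransferases and other conjugating enzymes, 11 of 21 were higher and 1 lower. Sult2a6 (0.74) and Sult2b1 (0.65), which sulfate steroids and bile acids, and Acsm5 (0.59) and Glyat (0.49), which act in glycine conjugation, passed in both fits.

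Of 6 tested AhR targets 2 were lower and 0 higher without the slide term (limma, unadjusted with it 3 lower and 0 higher), beside 14.2% lower and 14.1% higher over all transcripts. Cyp1a1, the classic AhR target, had 1.80, 1.72 and 1.90 with DMSO and 1.48, 1.42 and 1.59 with CCPB, lower on every CCPB array (difference -0.31, limma adjusted p = 0.0402), and missed the threshold with the slide term (-0.60, interval -0.93 to -0.26, adjusted p = 0.0658). Its call was also lost when any 1 of the 6 arrays was dropped. Aldh3a1, an aldehyde dehydrogenase that AhR induces, was not well above background on any CCPB array and at least 1.41-fold lower than with DMSO (limma adjusted p = 0.00124, and 0.103 with the slide term). The bound sets the mean of the brighter group against the lowest signal well above background on each dim array. Cyp1a2 (0.027, interval -0.10 to 0.15) did not pass. Of 24 tested targets of NRF2, which responds to oxidants, 3 were higher (12.5%) and 2 lower (8.33%) without the slide term, no more than the 14.1% and 14.2% over all transcripts, and Hmox1 alone passed in both fits. Nqo1 had 0.032 (interval -0.054 to 0.12).

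Genes of PPARalpha and fatty acid oxidation rose in part. 18 of 41 tested members were higher (43.9%) and 1 lower (2.44%) without the slide term, and 8 were higher in both fits (19.5%). Over all transcripts these shares were 14.1%, 14.2% and 1.46%. The median of the list was 0.16 (0.21 with the slide term). Beside Pdk4, the fatty acid hydroxylases Cyp4a3 (0.62) and Cyp4a1 (0.32) rose. So did the carnitine palmitoyltransferases that bring fatty acids into mitochondria, Cpt1b (0.45), Cpt1a (0.44) and Cpt2 (0.37). Creb3l3 (0.37), a transcription factor of fasting, and Eci1 (0.18), an isomerase of oxidation, completed the 8. Cpt1a stood at 1.37, 1.29 and 1.30 with DMSO and 1.69, 1.81 and 1.78 with CCPB, and diclosan replicate 3 was at the DMSO level (1.31). Other well-known targets did not pass, among them Angptl4 (-0.032) and Ehhadh (0.067), and Fgf21 was lower without the slide term only (-0.24). Acot1, a near copy of Acot5, had 0.75 and missed the threshold with the slide term (adjusted p = 0.401).

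Enzymes that break down amino acids rose as well. Of 37 tested members of the urea cycle and amino acid list, 21 were higher (56.8%) and 3 lower (8.11%) without the slide term. In both fits 8 were higher (21.6%), and the median was 0.22 (0.20 with the term). The shares over all transcripts were 14.1% higher, 14.2% lower and 1.46% higher in both fits. The urea cycle contributed Arg1 (0.47), Asl (0.35) and Ass1 (0.34), and sulfur amino acids contributed Cdo1 (0.78), a cysteine dioxygenase, and Mat1a (0.61), which makes S-adenosylmethionine. Hgd (0.46) and Fah (0.38) act on tyrosine and Haao (0.48) on tryptophan. Mat1a stood at 5.40, 5.52 and 5.45 with DMSO and 6.05, 6.11 and 6.05 with CCPB. Tat, the first enzyme of tyrosine breakdown, was lower without the slide term only (-0.19) and lost its call when DMSO replicate 2 or 3 or CCPB replicate 2 or 3 was dropped. Also lower in that fit alone was Nags (-0.29), which makes the activator of the urea cycle.

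**Figure D3:**
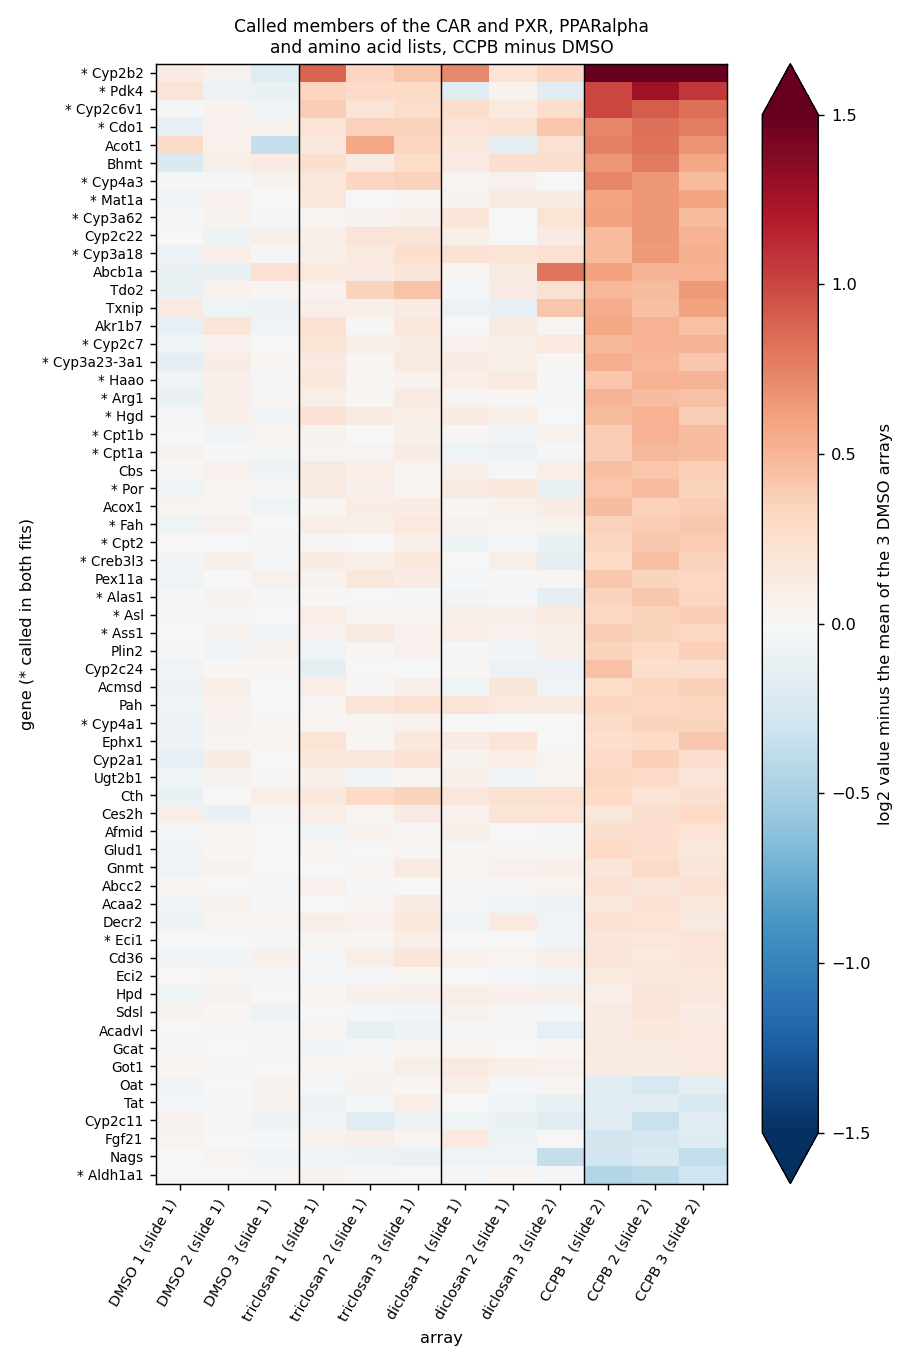
Log2 value minus the mean of the 3 DMSO arrays (colour) for the members of the CAR and PXR, PPARalpha and amino acid lists that were called without the slide term (rows), on each of the 12 arrays (columns); an asterisk marks members called in both fits. The 3 CCPB columns are red for most rows, from Cyp2b2 (1.83) downward, and blue for few, ending with Aldh1a1 (-0.37), while diclosan replicate 3 is pale in most rows.

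Cell cycle genes fell. Of 40 tested members 33 were lower (82.5%) and 0 higher without the slide term, and 19 were lower in both fits (47.5%). Over all transcripts 14.2% were lower and 14.1% higher without the slide term, and 1.51% were lower in both fits. The median of the list was -0.57 (-0.56 with the term). After Rrm2 the largest falls in both fits were those of mitotic genes, the kinesin Kif20a (-0.96) and Cdca3 (-0.91). Cdk1, the kinase that drives entry into mitosis, went from 1.15, 1.12 and 1.06 with DMSO to 0.34, 0.13 and 0.25 with CCPB, with diclosan replicate 3 at 0.98, near the DMSO arrays. Cyclins of several phases fell: Ccne1 (-0.61) and Ccne2 (-0.78) of entry into S phase, Ccna2 (-0.84) of S phase and Ccnb1 (-0.87) of mitosis. E2f1, the transcription factor of S phase genes, fell by 0.80 on the log2 scale. Of the subunits of the replicative helicase, Mcm3 (-0.67 on its brightest probe), Mcm7 (-0.57), Mcm4 (-0.57) and Mcm2 (-0.43) fell in both fits. The other probe of Mcm3 (-0.26) did not pass without the slide term. Mki67 (-0.73), Plk1 (-0.72), Bub1 (-0.69), Racgap1 (-0.68), Prc1 (-0.53) and Aurka (-0.23) complete the 19. The replication clamp Pcna (-0.10), Tk1 (-0.10) and Tyms (0.028), all genes of DNA synthesis, did not pass. The median of the 40 members, relative to the mean of the DMSO arrays, was -0.57, -0.61 and -0.57 on the CCPB arrays and -0.10 on diclosan replicate 3.

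In bulk RNA, fewer cells of a type and less RNA per cell cannot be told apart. Beside the fall of cell cycle genes, the summed level of 13 stellate cell and fibroblast markers was 27.8 to 29.9 on the DMSO arrays and 20.2 to 21.9 on the CCPB arrays, without overlap, and 24.9 on diclosan replicate 3. The smooth muscle protein Tagln and the filament protein Vim made up 43.4% and 37.5% of that sum with DMSO. Without the slide term 3 of its 9 tested members were lower (33.3%, beside 14.2% over all transcripts). They were Tagln (-0.72, also in both fits), Vim (-0.32) and Timp1 (-0.26). Acta2, the actin of activated stellate cells, was higher in that fit only (0.42) and lost its call when DMSO replicate 1 or 3 or any 1 CCPB array was dropped, and Col1a1 (-0.10), Col1a2 (-0.16), Col3a1 (0.52), Des (-0.28) and Reln (-0.15) did not pass. Lrat, Dcn and Lum, which define resting stellate cells and fibroblasts, were above background on no array. The part of stellate cells in the cell cycle result was not tested.

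**Figure D4:**
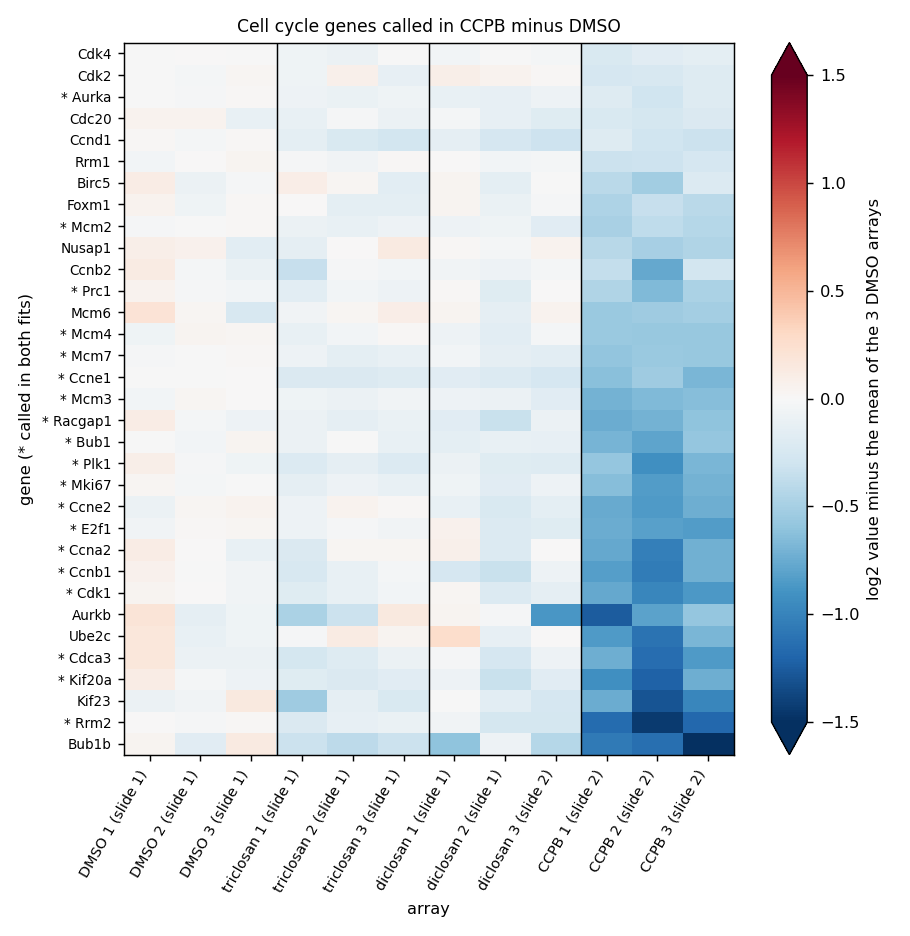
Log2 value minus the mean of the 3 DMSO arrays (colour) for the 33 cell cycle genes called lower without the slide term (rows), on each of the 12 arrays (columns); an asterisk marks the 19 called in both fits. The 3 CCPB columns are blue in every row, and diclosan replicate 3 on the same slide is pale in most rows, Aurkb and Bub1b being exceptions.

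To show sequence next to genes of replication that fell, the 250 bases before their transcription starts were searched for the E2F motif in 4 spellings, TTTCCCGC, TTTCGCGC, TTTGCCGC and TTTGGCGC, on both strands, where matches may overlap. Promoters were taken from RefSeq on the rat build GRCr8. Of the 40 tested cell cycle genes 29 had a promoter in that set, and 5 of these 29 held a motif (17.2%), as did 291 of the 8840 promoters of tested genes (3.29%) and 498 of all 27457 promoters (1.81%). Among the members lower in both fits 13 had a promoter and 3 held a motif (23.1%). Those 3 are shown, picked after their values were seen, with the motifs in capitals and read 5′ to 3′ on the strand of the gene, so that a match on the other strand appears as its reverse complement. In the Mcm2 promoter 2 matches overlap, since the same letters read as TTTCGCGC on either strand.
Mcm2 (chr4:122918095-122918344, - strand): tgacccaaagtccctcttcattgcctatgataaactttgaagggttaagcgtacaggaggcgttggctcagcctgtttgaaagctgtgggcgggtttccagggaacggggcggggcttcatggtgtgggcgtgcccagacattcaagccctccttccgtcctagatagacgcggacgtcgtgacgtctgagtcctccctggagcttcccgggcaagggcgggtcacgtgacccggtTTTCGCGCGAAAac
Mcm7 (chr12:22163179-22163428, - strand): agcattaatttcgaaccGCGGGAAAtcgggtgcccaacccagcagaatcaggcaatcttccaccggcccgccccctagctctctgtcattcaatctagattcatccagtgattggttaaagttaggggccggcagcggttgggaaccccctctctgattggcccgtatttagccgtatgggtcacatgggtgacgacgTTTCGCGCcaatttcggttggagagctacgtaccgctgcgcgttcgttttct
Cdk1 (chr20:19265043-19265292, + strand): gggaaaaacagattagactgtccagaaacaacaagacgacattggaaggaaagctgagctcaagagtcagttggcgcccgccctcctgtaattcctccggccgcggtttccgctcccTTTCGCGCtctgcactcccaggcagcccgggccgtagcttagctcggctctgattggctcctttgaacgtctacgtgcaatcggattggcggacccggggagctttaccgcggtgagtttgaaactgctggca
Among the members not lower in both fits 16 had a promoter and 2 held a motif (12.5%). These were Mcm6 (-0.53, lower without the slide term only) and Tyms, which did not pass. None of the 27 CAR and PXR promoters and none of the 30 PPARalpha promoters held one (0 of each). Beside 3.29% of the promoters of tested genes, counts of 0 in sets of this size set neither apart. A match describes these letters and no binding was measured.

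Of 19 tested genes of bile acid synthesis 8 were higher and 2 lower without the slide term, and 3 were higher in both fits. Among all 20359 transcripts, 14.1% were higher and 14.2% lower without the slide term, and 1.46% were higher and 1.51% lower in both fits. Beside Nr0b2, Acox2, a peroxisomal oxidase that shortens bile acid side chains, rose from -0.87, -0.68 and -0.86 to -0.063, 0.050 and 0.034, 1.76-fold, and the hydroxylase Cyp39a1 by 0.23. Cyp7a1 and Cyp8b1, the main enzymes that Nr0b2 represses, were too dim to test. Of 23 tested transporters of bile acids and organic anions, 10 were higher (43.5%) and 5 lower (21.7%) without the slide term. In both fits 4 were higher and 3 lower. The pumps of the bile canaliculus Abcb11 (0.45), which exports bile acids, and Abcb4 (0.29), which exports phospholipid, rose, as did Slco2b1 (0.54) and Slco2a1 (0.23), which take up organic anions and prostaglandins. Slc10a2, a sodium-dependent bile acid transporter, fell from 2.36, 2.25 and 2.26 to 1.60, 1.40 and 1.49, and the efflux pumps Abcc5 (-0.50) and Abcg2 (-0.31) fell. The hepatocyte uptake carrier Slc10a1 missed the threshold with the slide term (0.41, adjusted p = 0.0502).

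Some genes of hormones, lipoproteins and iron rose too. Igfbp4, which binds insulin-like growth factors, rose from 4.03, 4.08 and 4.01 to 4.95, 5.03 and 4.87, 1.88-fold (limma adjusted p = 1.26e-05), and Igfals, which stabilises them in blood, by 0.51. Cyp17a1, the hydroxylase and lyase of androgen synthesis, rose from 1.12, 1.15 and 1.08 to 1.93, 1.87 and 1.84, 1.70-fold, and Srd5a1, which reduces testosterone, fell by 0.33 on the log2 scale. Cited4, a transcriptional coregulator, rose by 0.91 and the retinoic acid receptor Rarb by 0.37 on its brightest probe, while its other probe (0.23) did not pass. Klf9, a target of thyroid hormone and glucocorticoid, rose by 0.29. Apob (0.37) and Mttp (0.32), which build lipoproteins, and the iron genes Hjv (0.41) and Slc40a1 (0.32), a coreceptor and the iron exporter, rose in both fits. Alb, which encodes albumin, had -0.028 (interval -0.11 to 0.051).

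Of the stress lists, the integrated stress response, the chaperones of the endoplasmic reticulum and the p53 targets had more members lower than higher without the slide term. In both fits 1 of their members passed. Over all transcripts 14.1% were higher and 14.2% lower without the slide term, and 2.97% passed in both fits. In lists of this size both-fit counts of 0 or 1 set none of them apart. Of 32 tested genes of the integrated stress response, which acts through ATF4, 1 was higher (3.12%) and 14 lower (43.8%). Gdf15 alone passed in both fits. Ddit3 (-0.38) and Sesn2 (-0.49) were lower without the slide term, and the call of Ddit3 was lost when any 1 of the 6 arrays was dropped. Trib3 (-0.19, adjusted p = 0.0622) and Asns (-0.061) did not pass. Of 26 endoplasmic reticulum chaperones 2 were higher (7.69%) and 13 lower (50%), led by Derl3 (-0.63) and Creld2 (-0.49). By limma 0 passed in both fits, with an unadjusted p under 0.05 for 5 lower and 0 higher with the slide term. Hspa5, the central chaperone, had -0.16, and -0.087 with the slide term (adjusted p = 0.551), and it lost its call when DMSO replicate 1 was dropped. Of 20 p53 targets 2 were higher (10%) and 8 lower (40%), 0 of them in both fits by limma. Unadjusted with the slide term, 3 were higher and 4 lower. Mdm2 (-0.065) did not pass. Cdkn1a, the cell cycle inhibitor that p53 induces, had 0.067 on its brightest probe, which did not pass, and 0.30 on its other probe, which was called higher. Of 18 heat shock genes 4 were higher (22.2%) and 3 lower (16.7%), again with 0 in both fits by limma. Unadjusted with the slide term, 5 of the heat shock genes were higher and 0 lower.

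Housekeeping genes and genes of lipid synthesis had 0 calls in both fits by limma, where 2.97% of all transcripts passed. In lists of this size a count of 0 sets none of them apart. Without the slide term 14.1% of all transcripts were higher and 14.2% lower. Of 72 cytosolic ribosomal protein genes 2 were lower and 0 higher without the slide term, and 0 had an unadjusted p under 0.05 with it. Of 51 genes of oxidative phosphorylation 10 were higher and 0 lower without the slide term (unadjusted with it, 3 and 0), led by Uqcrq (1.05, and 0.23 with the term, adjusted p = 0.232). Of 21 cholesterol synthesis genes 6 were higher (28.6%) and 3 lower (14.3%), and unadjusted with the slide term 4 were higher and 1 lower. Of 27 genes of fatty acid and triglyceride synthesis 7 were higher (25.9%) and 1 lower (3.7%) without the slide term. Unadjusted with the slide term, 11 were higher and 0 lower, beside 1761 and 1910 of all 20359 transcripts. Fasn had 0.072 (interval -0.033 to 0.18). The sterol sensor Insig2 (0.36) and the glycolytic regulator Pfkfb1 (0.53) were the members of their lists that passed in both fits. Nfkbia, an inhibitor of NF-kappaB, was that of the acute phase list (0.23).

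**Figure D5:**
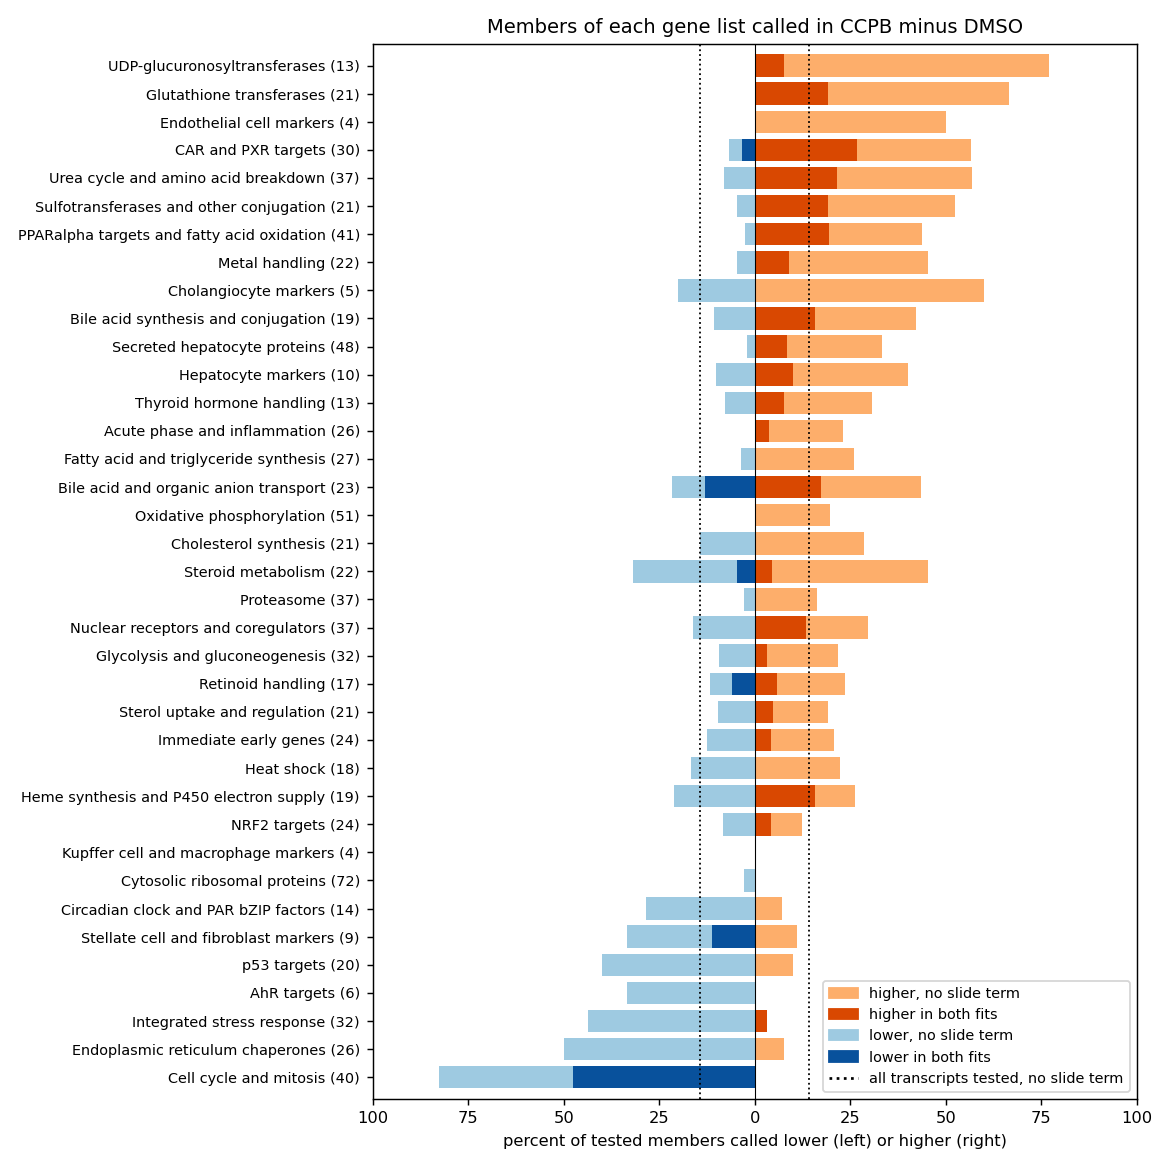
Percent of the tested members of each gene list called higher (right) or lower (left) in CCPB minus DMSO, in pale colours without the slide term and in dark colours for calls in both fits; the number tested stands in parentheses and the dotted lines mark 14.1% higher and 14.2% lower over all transcripts. The cell cycle list reaches farthest to the left. The conjugation, CAR and PXR, amino acid and PPARalpha lists reach past the dotted line on the right. So do many other lists, among them cholangiocyte markers (60%), steroid metabolism (45.5%), metal handling (45.5%) and bile acid transport (43.5%).

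Markers of cell types other than hepatocytes were dim or few. Of 12 Kupffer cell and macrophage markers 4 were tested and 0 were called in either fit by limma (unadjusted with the slide term, 0). Over all transcripts 28.3% were called without the slide term and 2.97% in both fits. Adgre1, Marco and Vsig4 were above background on no array. The summed endothelial markers were 8.11 to 8.61 on the DMSO arrays and 9.47 to 9.80 on the CCPB arrays and the summed cholangiocyte markers 3.04 to 3.22 on the DMSO arrays and 3.71 to 3.81 on the CCPB arrays. Each sum was mostly 1 gene, Vwf with 96.5% of the endothelial sum with DMSO and Epcam with 78.2% of the cholangiocyte sum. Vwf was higher without the slide term only (0.21, and -0.026 with it) and lost its call when any 1 of the 6 arrays was dropped. Epcam too was higher in that fit only (0.33, and 0.24 with the slide term). The groups did not overlap in either sum, but diclosan replicate 3 stood at 9.71 and 3.29, so the endothelial sum was at the CCPB level there too. No endothelial or cholangiocyte marker passed in both fits. With so few markers tested, a count of 0 sets none of these 3 lists apart. Pecam1, Lyve1, Krt19, Cftr and Spp1 were above background on no array.

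Some of the largest differences passed without the slide term only. Slc31a1, a copper importer, had -2.01, -2.01 and -2.07 with DMSO and -0.43, -0.80 and -0.83 with CCPB, but diclosan replicates 1 to 3 had -2.36, -2.14 and -0.49, so the arrays parted by slide. With the slide term the difference turned to -0.41, and the call was lost when any 1 of the 6 arrays was dropped. Cyp26b1, which degrades retinoic acid, had -3.45, -4.64 and -3.20 with DMSO and was above background on no CCPB array, at least 2.39-fold lower (adjusted p = 0.000833 by limma without and 0.109 with the slide term). Bik, a cell death protein, and the tetraspanin Tspan11 were likewise at least 1.77- and 1.75-fold lower. Mob4, Bcl2a1 and the chemokine receptor Ccr2 were above background on no DMSO array and at least 1.95-, 1.49- and 1.48-fold higher with CCPB. Ccr2 lost its call when DMSO replicate 2 or 3 or CCPB replicate 1 or 3 was dropped. Tekt1, a protein of cilia, was at least 1.48-fold lower and lost its call when any 1 DMSO array was dropped. Gng3 (1.23) and Rasd1 (1.17), which act in G protein signalling, and Mical1 (-1.44) also passed in that fit only.

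CCPB was also set against the hydroxylated compounds at the same dose and time, in 2 pairs, with p-values adjusted over all 20359 transcripts in each. Diclosan carries as many chlorine atoms as CCPB, bears a hydroxyl group and has a chlorine atom para rather than meta to the ether oxygen, and triclosan carries a further chlorine atom. Against triclosan 4176 transcripts differed (20.5%), and 285 with the slide term (1.4%). Against diclosan 2917 differed (14.3%), and 997 with the slide term (4.9%), where the comparison is with replicate 3 on the CCPB slide. All comparisons share the CCPB arrays, and the slide-term difference from DMSO contains the difference from diclosan replicate 3. Of the 605 transcripts that separated CCPB from DMSO in both fits, 522 also differed from triclosan (217 with the slide term) and 550 from diclosan (514 against replicate 3). Triclosan lay on the DMSO slide, so its comparison has the same limit as that with DMSO.

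Many genes of drug metabolism were higher, and most cell cycle genes lower, with CCPB than with the hydroxylated compounds. Of all 20359 transcripts, 2222 were higher and 1954 lower than with triclosan (130 and 155 with the slide term). Against diclosan replicate 3 they were 490 and 507. Of 30 CAR and PXR targets 14 were higher than with triclosan (3 with the slide term) and 11 higher than on diclosan replicate 3. In each comparison 1 was lower. Of the 13 UDP-glucuronosyltransferases and cofactor enzymes these counts of higher members were 7 (0 with the slide term) and 0. Of the 21 glutathione transferases they were 10 (1 with the slide term) and 3. Cyp2b2 was 1.29 above triclosan (interval 0.93 to 1.66, limma adjusted p = 0.00108, and 0.0632 with the slide term) and 1.51 above diclosan replicate 3. Cyp2c6v1 was 0.64 and 0.65 above them, Pdk4 0.81 and 1.27, Cyp17a1 0.90 and 0.92, and Acot5 stood 0.81 above triclosan. Rrm2 (-1.10 and -0.99), Rassf9 (-1.09 and -1.47) and Cenpt (-1.13 and -0.97) were below them. Of the 40 cell cycle genes 31 were lower than with triclosan (12 with the slide term) and 23 lower than on diclosan replicate 3, and 0 were higher.

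For some genes a difference between the compounds missed the threshold. Nr0b2 was 0.15 above triclosan with an interval of -0.13 to 0.44 (limma adjusted p = 0.41). Against diclosan replicate 3 it was 0.62 higher, with an interval of 0.23 to 1.00 (adjusted p = 0.0805). Against all 3 diclosan arrays, without the slide term, Nr0b2 was 0.45 higher and did pass (interval 0.17 to 0.73, limma adjusted p = 0.0412). Gdf15 was 0.086 above triclosan (interval -0.12 to 0.30) and 0.22 above diclosan replicate 3 (interval -0.10 to 0.53), and neither difference passed. Cited4 was 0.33 above triclosan (adjusted p = 0.0044) and 0.33 above diclosan replicate 3 (adjusted p = 0.0532). Slc40a1 was 0.084 above triclosan (adjusted p = 0.125) and 0.10 above diclosan replicate 3 (adjusted p = 0.349). Cyp1a1 was lower with CCPB than with either, with differences of -0.58 and -0.76 (adjusted p = 0.0042 and 0.0087).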

How the data were processed

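RNA of 12 hepatocyte cultures was labelled with Cy3 and hybridised to Agilent rat arrays. Per the file headers, the authors extracted one spot intensity per probe position, with background subtracted and trends removed, using Agilent Feature Extraction 10.7.1.1. A matrix of linear signal that the authors deposited, scaled to each array's 75th percentile, served as an alternative. The floor set for dim spots can narrow differences between dim probes.

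Spots flagged non-uniform (1 to 8 per array) were left out, population outliers (272 to 363) were kept, and 0 spots were saturated. Between 51.6% and 55.5% of probes per array were well above background. Spots of a probe were averaged in log2 and the 75th percentile was subtracted. Probes detected on 3 of 3 arrays in 1 or more of the 4 groups were kept (24254 of 45598), the brightest per gene. Symbols came from a rat RefSeq table. The number of arrays limits the precision: the median half-width of a 95% interval was 0.145, and 0.233 with the slide term.

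All 12 arrays were fitted by group with limma 3.58.1 in R 4.3.3, two-sided, which was tested on simulated data. The slide came from the headers, the labels state no batch. Members, lists and rules were chosen with earlier results of these data known. Named genes are the 14 largest rises and falls called in both fits, the 6 largest each way called without the slide only, up to 4 per list with the smallest p, and a set of liver genes. For the first 2 rules the groups could not overlap and the brighter one was above background on 3 of 3 arrays. List members named beyond this were chosen after their values were seen. Of 2346 genes with several probes, 14 had probes called in opposite directions. Some named genes are not reported here. The tables held 0 columns of other samples.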

Additional observations from a re-analysis of the deposited data

How the results depend on the processing

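The count of CCPB against DMSO stayed within 1.5 times of 5760 with the array column alone, only these 2 groups, the authors' value table, population outliers left out, normexp, median centring, quantile normalization, both other filters, the mean of probes and an intensity trend. It was 5519 with the replicate block, 300 with replicate block and slide, 697 with slide alone, 2805 when dim probes were not filtered, and 0 with array column and slide. Replicate numbers did not pair the samples, since deviations of same-numbered CCPB and DMSO arrays correlated at 0.039, -0.028 and -0.036. Leaving out 1 array gave 3663 to 7068, the latter without diclosan replicate 3. The count in both fits (605) was 270 with the replicate block, 0 with the array column, 176 with no filter, 1121 with an intensity trend, and 337 to 466 leaving out 1 array. Without diclosan replicate 3, or with only the 2 groups, the slide term could not be fitted and that count was not run.

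Against triclosan (4176) the counts were 285 with slide, 12 with replicate block and slide, 0 with column and slide (limma, unadjusted p under 0.05 in 1864), 1389 with no filter, and 2113 to 5617 leaving out 1 array. Against diclosan (2917) they were 997, 580, 7 and 1281, with 1231 for only the 2 groups and 1650 to 5428 leaving out 1 array, the highest without diclosan replicate 3.

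With slide, Slc31a1 turned to -0.41, Vwf to -0.026 and Hsf1 to 0.023. With replicate block and slide, Slc31a1 turned to -0.46 and Vwf to -0.083. With column and slide, Slc31a1 turned to -0.16, Hsf1 to 0.022, Psmd6 to -0.0050 and Slc17a4 to -0.0084, and with the mean of probes Rpl35 turned to 0.010. The cause was not tested. The files hold no mean foreground signal, so normexp used the median signal. That setting, the outlier setting and leaving out diclosan replicate 3 were chosen after seeing the data. Signal near background limits Colq, Cyp26b1 and the other genes given as bounds.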
